A study of Mus musculus with 10 samples.

Results

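To ask how the transcription factors of the CREB family and the acetyltransferases that work with them stood in mice with stable differences in exploration, their probe sets were compared in whole hippocampus of 5 High Exploration and 5 Low Exploration mice. The genes were taken from a list of 10 names, and every probe set whose platform annotation gave exactly 1 of these names as its gene symbol was kept. This gave 29 probe sets of 9 genes (Creb1, Crem, Atf4, Crtc1, Crtc2, Crebbp, Ep300, Kat2a and Kat2b) among 45037 probe sets and 18193 named genes. Atf1, a close relative of Creb1, had no probe set with its symbol alone and was not analysed here. All mice were inbred Balb c/J females from Jackson, born on the same day and left untreated. They differed in their rank on a composite of open field measures, taken on several days and under changed lighting, and had been tested as adults. Age at tissue collection was not given in the sources used here. Each array held the RNA of 1 mouse, and since the text given for the series design concerns handled mice, groups and tissue were taken from the sample labels.

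CREB proteins bind the cyclic AMP response element, a short palindrome found in many promoters that respond to neuronal activity. Kinases driven by cyclic AMP and calcium phosphorylate Creb1, which then binds Crebbp (CBP) and Ep300 (p300), enzymes that acetylate histones and so help to open chromatin. Crtc1 and Crtc2 are coactivators that enter the nucleus when calcineurin removes their phosphates, while Kat2a and Kat2b are the acetyltransferases of the SAGA and ATAC complexes. In the hippocampus this pathway is known for its part in long-term memory and lasting synaptic change.

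The element itself is shown in the promoters of 4 known CREB targets, because CREB proteins bind it. RefSeq promoter windows (250 bases before to 50 after the start, GRCm38.p6) were at hand for 16 of 19 target genes fixed for this comparison, and 4 of these genes held the full site TGACGTCA, which reads the same on both strands. Of all 32851 windows, 1.79% held it. Capitals mark the site, and each stretch runs 5′ to 3′ on the strand of its gene.
Scg2, chr1:79440037-79440144, minus strand: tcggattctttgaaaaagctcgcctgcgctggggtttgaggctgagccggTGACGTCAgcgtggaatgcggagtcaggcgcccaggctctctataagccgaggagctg
Pcsk1, chr13:75089729-75089836, plus strand: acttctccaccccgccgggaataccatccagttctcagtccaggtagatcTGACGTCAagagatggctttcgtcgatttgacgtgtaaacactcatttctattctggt
Sst, chr16:23890845-23890942, minus strand: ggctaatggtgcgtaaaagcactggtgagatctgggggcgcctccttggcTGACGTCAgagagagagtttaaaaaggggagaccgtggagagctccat
Dusp1, chr17:26508558-26508665, minus strand: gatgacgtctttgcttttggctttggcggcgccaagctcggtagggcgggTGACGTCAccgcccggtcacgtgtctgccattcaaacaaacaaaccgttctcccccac
The first base of the site lay 68, 78, 48 and 143 bases before the start of Scg2, Pcsk1, Sst and Dusp1. None of the 9 windows matched to 8 members held the full site, which says only that these letters are not in these windows. The core of the site, TGACG, on either strand and counted also inside a full site, was found in 4 of the 9 windows (those of Atf1, Atf4, Kat2a and 1 of 2 of Kat2b) and in 20.8% of all windows.

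Expression is given as log2 of the deposited MAS 5.0 signal, so a difference of 1 is a doubling, and every signed difference is High minus Low Exploration. A level can be compared between mice on 1 probe set, but not between probe sets. Detection calls were not at hand, so the 80 probe sets of olfactory and vomeronasal receptor genes, which are foreign to the hippocampus, served as a yardstick of low signal, with a 95th percentile of 8.53. The mean signal was above it for 11 of the 29 probe sets, and those of Crtc2 were both below. Over all probe sets the median signal of an array was 7.16 to 7.68 in High and 7.83 to 8.09 in Low Exploration mice, and the hybridisation controls read 13.25 to 14.03 and 13.94 to 14.71. The level of these controls thus went largely with the group. A fit with this level in the model separates the 2 poorly, so the differences it gives below are imprecise. The poly-A controls, added to the RNA before labelling, read 11.84 to 13.06 and 13.58 to 14.67, without overlap. The log2 ratio of 3' to 5' probe sets was 3.96 to 5.21 against 3.49 to 4.06 for Gapdh and 4.33 to 5.90 against 4.28 to 5.98 for actin. Of the neuronal markers Snap25, Syt1, Rbfox3 and Camk2a were above the yardstick and Slc17a7, at 8.04, was not. Slc17a7 differed by −2.11 without overlap (limma adjusted p = 0.134). Over all genes the brightest probe set did not overlap in that direction for 3.61%. Among the 5 neuronal markers 3 were higher and 2 lower. Their summed signal was 14.47 to 15.28 in High and 14.28 to 14.61 in Low Exploration mice. Of the hippocampal ones Wfs1, Spink8, Neurod6 and Bcl11b were above the yardstick and Prox1, at 8.14, was not. Of these markers 4 were higher and 1 lower, and their summed signal was 13.16 to 14.33 in High and 12.21 to 13.78 in Low Exploration mice. The summed signal of 4 astrocyte markers, all above the yardstick, was 15.27 to 16.05 on the log2 scale in High and 14.27 to 15.17 in Low Exploration mice. Of these astrocyte markers 3 were higher and 1 lower. The summed signal of 4 microglial markers, of which Csf1r alone was above the yardstick, was 13.09 to 14.85 and 14.40 to 15.40. Among the microglial markers 2 were higher and 2 lower. A summed signal is led by its brightest marker, so it does not stand for the whole list. The part of these values in the differences below was not tested, and in whole tissue fewer cells of a type and less RNA per cell cannot be told apart.

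No probe set of a CREB family or acetyltransferase gene passed limma's threshold (adjusted p under 0.05 over all probe sets), and their adjusted p-values ran from 0.164 to 0.975. Of all probe sets 0.0711% passed, and 0.00666% passed with a higher mean in High Exploration mice. At an unadjusted p under 0.05 there were 5 of 29, or 17.2%, against 21.3% of all probe sets. Atf4, Crebbp and Ep300 had 1 each with a higher mean in High Exploration mice, and Crtc1 and Kat2a 1 each with a lower mean. The 3 higher ones are 10.3% of the 29, where 4.48% of all probe sets had an unadjusted p under 0.05 in that direction, and the 2 lower ones are 6.90% against 16.8%. Groups did not overlap for 1 of the 29, or 3.45%, against 6.01% of all probe sets (1.17% with the High Exploration mice above, 4.84% with them below). The median difference over the 29 was −0.27, beside −0.47 over all probe sets. Of the 29, 14 (48.3%) were above 0, beside 31.0% of all probe sets. After median centring the median over the 29 was 0.27 and with the hybridisation controls set equal it was 0.34, beside 0.07 and 0.14 over all probe sets, so the sign of small differences depends on the scaling. The standard errors of the 29 differences, from 0.39 to 0.98, set the precision that 5 arrays per group gave. In simulated data with as many arrays, 0 of 50 log2 changes of 1 and 5 of 50 of 2 passed. A gene that did not pass is therefore not shown to be unchanged.

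**Figure D1:**
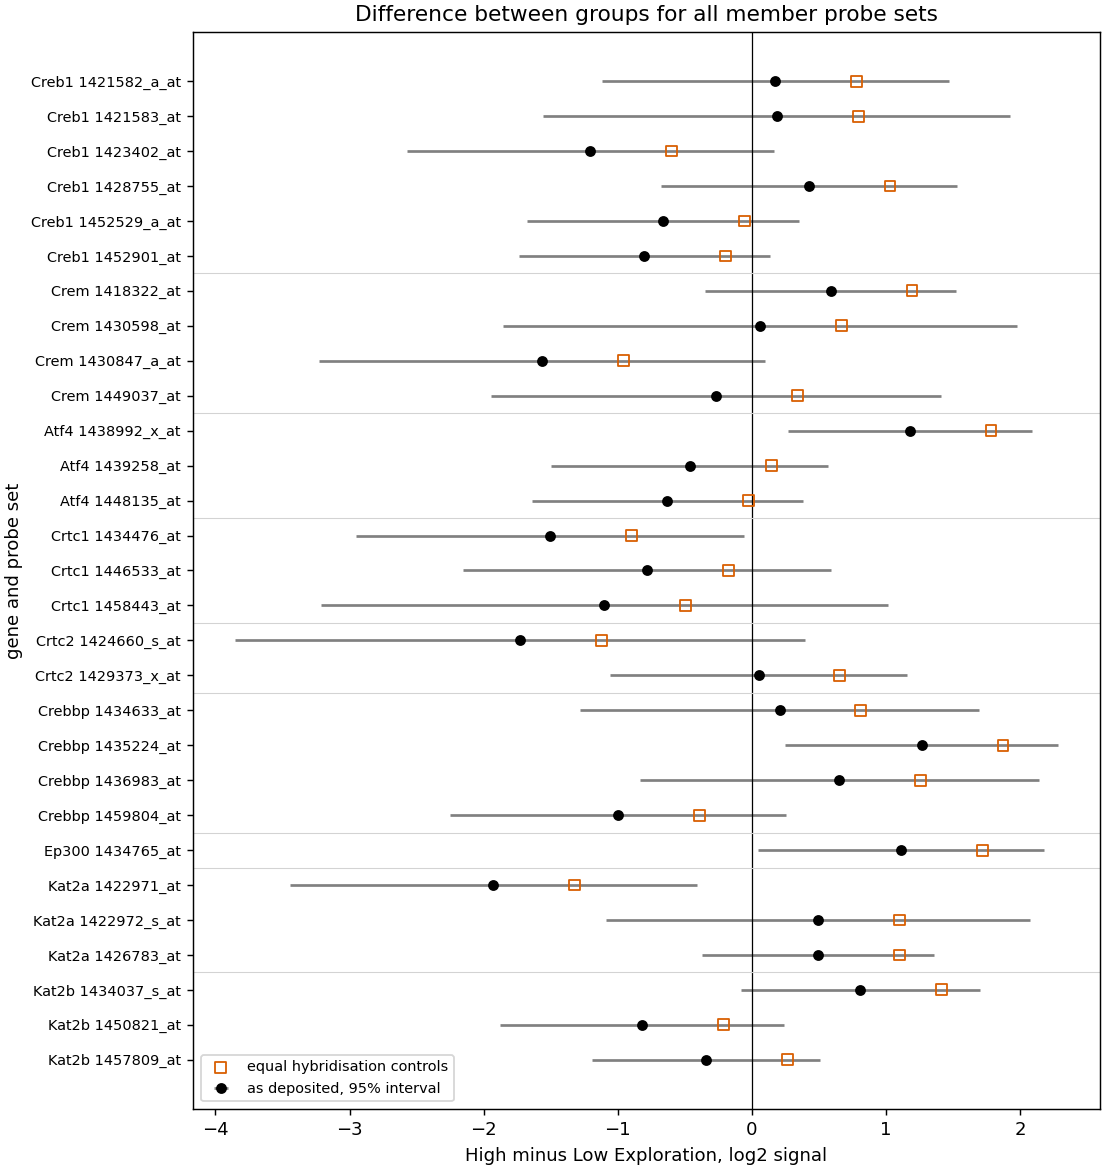
Difference between High and Low Exploration in log2 signal (horizontal axis) for each of the 29 probe sets (vertical axis, grouped by gene). Black points are the values as deposited with 95% intervals from limma, and orange squares the values after the hybridisation controls of all arrays were set equal; 5 intervals as deposited leave out 0, those of 1 probe set each of Atf4, Crebbp, Ep300, Crtc1 and Kat2a.

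Creb1, the factor that gives the family its name, had 6 probe sets, of which 3 were higher and 3 lower in High Exploration mice. On 1452901_at, its brightest probe set, the log2 signal of the 5 High Exploration mice was 10.27, 9.50, 10.71, 10.67 and 11.15. The Low Exploration mice had 11.77, 10.73, 10.90, 11.25 and 11.68. Thus 4 of 5 High Exploration mice lay below every Low Exploration mouse and the fifth lay among them. The means were 10.46 ± 0.62 and 11.26 ± 0.46 (SD, n = 5 each), a difference of −0.80 (95% interval −1.74 to 0.13, limma adjusted p = 0.294). With the hybridisation controls set equal it was −0.20, and with their level in the model −0.09. It was larger, at −0.95 and −1.04, with quantile normalisation and cyclic loess (limma adjusted p = 0.348 and 0.325). On 1428755_at the difference was 0.42 (95% interval −0.68 to 1.52), and 3 High Exploration mice lay above and 1 below all Low Exploration mice. With the hybridisation controls in the model this difference was −0.54. The probe set with the smallest p of the gene was 1423402_at. It read 5.24, 5.76, 4.86, 7.98 and 6.59 in High Exploration and 7.70, 8.17, 6.42, 6.35 and 7.82 in Low Exploration mice, a difference of −1.20 (SE 0.63, limma adjusted p = 0.282). The groups overlapped through High Exploration replicates 4 and 5. The remaining 3 gave −0.66, 0.17 and 0.19, and the last was −0.63 with the controls in the model. The data therefore hold no direction for Creb1 that its probe sets share.

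Crem, whose products include activators and the inducible repressor ICER, had 4 probe sets with differences from −1.57 to 0.59. On 1418322_at, the brightest, the High Exploration mice were close together, at 8.97, 8.97, 8.70, 8.85 and 8.70. The Low Exploration mice were spread over 9.27, 8.26, 7.24, 7.87 and 8.60. The SDs were 0.13 and 0.76 around means of 8.84 and 8.25, and Low Exploration replicate 1 lay above all High Exploration mice. The difference in spread was not tested. The difference in mean was 0.59 (95% interval −0.35 to 1.52, limma adjusted p = 0.435). Without Low Exploration replicate 1 it was 0.84 and the groups did not overlap (limma adjusted p = 0.261). On 1430847_a_at the signals were 6.16, 7.10, 5.98, 4.22 and 4.72 against 4.52, 8.07, 7.49, 7.44 and 8.48. Here Low Exploration replicate 1 was at the low end of its group and apart from the other 4. The difference was −1.57 (SE 0.77, limma adjusted p = 0.257), and without that array it was −2.24 (limma adjusted p = 0.135). The mean signal of this probe set, 6.42, was below the yardstick. The other probe sets gave −0.27 and 0.06, and the first of these turned to 0.34 at equal hybridisation controls.

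Atf4, the factor that carries the response to amino acid shortage and misfolded protein, had the only probe set whose groups did not overlap. On 1438992_x_at the 5 High Exploration mice had a log2 signal of 11.10, 12.38, 11.06, 11.26 and 11.45. The Low Exploration mice had 10.78, 10.59, 9.82, 10.45 and 9.72. Every High Exploration mouse was above every Low Exploration mouse, by 0.28 at the nearest. The means of 11.45 ± 0.54 and 10.27 ± 0.47 (SD, n = 5 each) differed by 1.18, or 2.26-fold (95% interval 0.27 to 2.08, limma adjusted p = 0.164). It was 1.78 at equal hybridisation controls and 0.54 with the level of these controls in the model (limma adjusted p = 0.176 and 0.884). Over all probe sets the groups did not overlap in this direction for 1.17%. The other Atf4 probe sets, 1448135_at and 1439258_at, did not follow, at −0.63 and −0.46 (limma adjusted p = 0.437 and 0.581). The second of these turned to 0.14 at equal hybridisation controls. The suffix x_at marks a probe set that may also match transcripts of other genes, so the signal of the first cannot be given to Atf4 alone. The log2 ratio of 1438992_x_at to 1448135_at within an array does not depend on a constant that scales the array. It was 2.52, 4.32, 2.13, 2.43 and 2.38 in High and 0.15, 1.24, 0.40, 1.74 and 1.22 in Low Exploration mice, without overlap. The 2 probe sets lie in deciles 10 and 8 of mean signal, 10 being the brightest. The median differences of all probe sets there were 0.43 and −0.47, and the part of this in the ratio was not tested. The ratio of 1438992_x_at to 1439258_at overlapped, at 2.85 to 4.95 in High and 0.74 to 3.26 in Low Exploration mice. These ratios were chosen after the data were seen, and over all pairs of probe sets of 1 gene on the array 3.92% did not overlap. The Atf4 promoter window held the core site in 2 places, and the one in capitals here, read on the opposite strand as TGACG, begins 12 bases before the start.
Atf4, chr15:80255122-80255183, plus strand: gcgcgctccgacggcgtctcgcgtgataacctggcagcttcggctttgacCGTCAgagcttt

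The CRTC coactivators had lower means in High Exploration mice on 4 of 5 probe sets, and none passed. Of all probe sets 31.0% had a higher mean in High Exploration mice, so a lower mean was the common case. All 3 probe sets of Crtc1, the family member most abundant in neurons, were lower. On 1434476_at the High Exploration mice read 8.65, 6.15, 7.79, 10.11 and 8.06, and the Low Exploration mice 8.81, 9.15, 9.42, 10.59 and 10.33. High Exploration replicate 4 was the single mouse of its group inside the Low Exploration range. The difference was −1.51, a 2.84-fold higher signal in Low Exploration mice (95% interval −2.95 to −0.06, limma adjusted p = 0.221). It was −0.90 at equal hybridisation controls, and with the level of these controls in the model it was −0.03. The other Crtc1 probe sets gave −0.78 and −1.10, which were −0.18 and −0.49 at equal controls and 0.32 and 0.44 with the controls in the model. Crtc2, which acts in many tissues, was dim on both probe sets. On 1424660_s_at its signal was 2.997, 6.91, 4.33, 3.28 and 5.42 in High and 3.14, 6.40, 5.89, 7.86 and 8.31 in Low Exploration mice. Both groups were widely spread and overlapped, and the range within each exceeded the size of the difference of −1.73 (95% interval −3.86 to 0.40, limma adjusted p = 0.317). The other Crtc2 probe set differed by 0.05.

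Crebbp and Ep300, the paired acetyltransferases that CREB recruits, both had higher means in High Exploration mice on their brightest probe sets. On Crebbp 1435224_at the signals were 11.29, 10.74, 9.52, 9.77 and 9.70 in High and 9.10, 8.98, 8.87, 9.60 and 8.15 in Low Exploration mice. Here 4 of 5 High Exploration mice lay above all Low Exploration mice, and replicate 3 lay just under the highest of these. The means of 10.21 ± 0.77 and 8.94 ± 0.52 (SD, n = 5 each) differed by 1.27, or 2.40-fold (95% interval 0.25 to 2.28, limma adjusted p = 0.172). For Ep300, measured by 1434765_at alone, the signals were 12.34, 11.72, 10.75, 12.39 and 11.88 against 10.87, 11.40, 10.16, 11.43 and 9.65. Again 4 of 5 High Exploration mice lay above all Low Exploration mice and replicate 3 did not. The difference was 1.11, or 2.16-fold (95% interval 0.04 to 2.18, limma adjusted p = 0.221). With the level of the hybridisation controls in the model the differences were 0.41 for Crebbp and 0.73 for Ep300. The other Crebbp probe sets gave 0.65, 0.21 and −0.996, of which the last had a mean signal of 3.61 and none was above the yardstick. With the controls in the model the first of them was −0.05 and the next −1.44.

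Kat2a and Kat2b, the catalytic subunits of SAGA and ATAC, gave opposite values on different probe sets. On Kat2a 1422971_at the High Exploration mice read 4.74, 5.69, 7.08, 6.39 and 7.76 and the Low Exploration mice 6.84, 9.96, 7.16, 8.73 and 8.60. Among the High Exploration mice 3 lay below all Low Exploration mice and 2 lay among them. The difference was −1.93, a 3.81-fold higher signal in Low Exploration mice (95% interval −3.45 to −0.41, limma adjusted p = 0.167), on a probe set whose mean signal of 7.30 was not above the yardstick. With the hybridisation controls in the model it was −0.79. On 1426783_at, the brightest Kat2a probe set, the signals were 9.42, 9.02, 10.16, 9.53 and 9.53 against 9.02, 9.30, 8.69, 9.68 and 8.51. These overlapped widely, with a difference of 0.49 (95% interval −0.38 to 1.36, limma adjusted p = 0.479), and 1422972_s_at also gave 0.49. The log2 ratio of 1426783_at to 1422971_at was 3.20 ± 1.03 in High and 0.78 ± 1.16 in Low Exploration mice (SD, n = 5 each), and its ranges of 1.77 to 4.68 and −0.66 to 2.18 overlapped. For Kat2b, the brightest probe set 1434037_s_at read 10.85, 10.58, 9.90, 10.18 and 9.76 in High and 9.89, 9.002, 8.97, 10.06 and 9.31 in Low Exploration mice. There 3 of 5 High Exploration mice lay above all Low Exploration mice, and the difference was 0.81 (95% interval −0.08 to 1.70, limma adjusted p = 0.271). The other Kat2b probe sets gave −0.82 and −0.34, and the second of these turned to 0.26 at equal hybridisation controls.

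**Figure D2:**
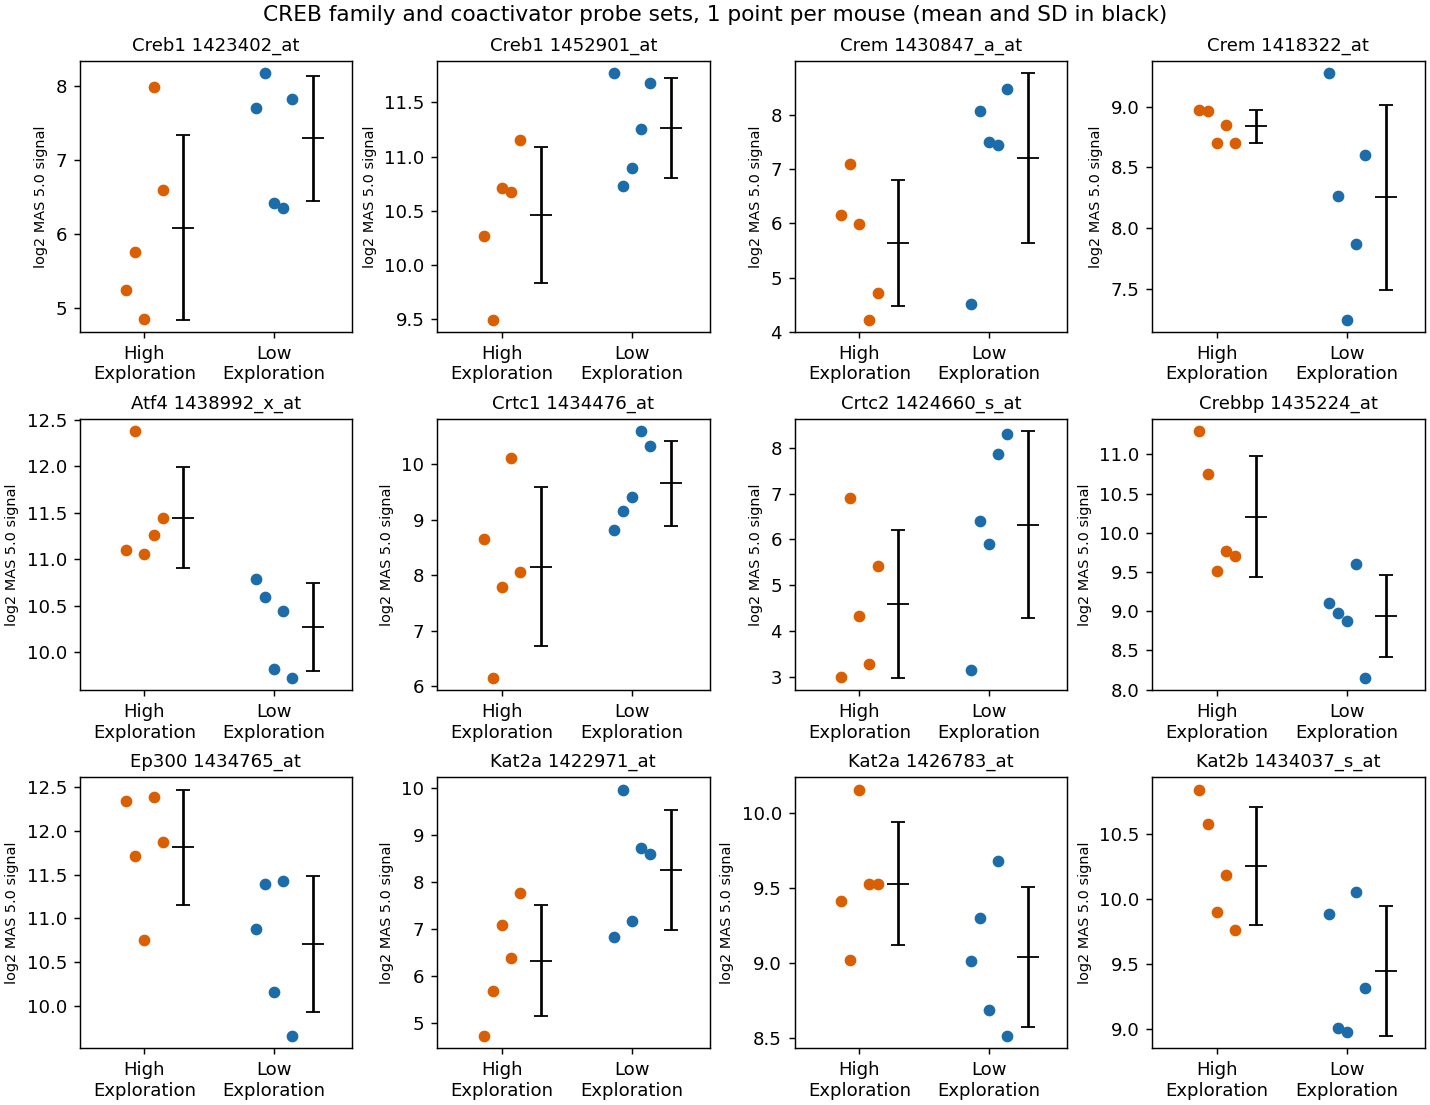
Log2 MAS 5.0 signal (vertical axis, own range in each panel) of 12 probe sets, for each gene the one with the highest mean signal and the one with the smallest p. Each point is 1 mouse, orange for High and blue for Low Exploration, and black bars give the mean and SD of 5 mice; the groups are apart on Atf4 1438992_x_at alone, and 4 of 5 High Exploration mice lie above all Low Exploration mice on Crebbp 1435224_at and Ep300 1434765_at.

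Across the whole table the difference depended on the level of signal, so each probe set was set beside others of like signal. In the highest decile of mean signal the median difference of all probe sets was 0.43, in the ninth it was −0.17, and in the lowest −0.62. Crebbp 1435224_at lay 1.44 above the median of its decile, Crem 1418322_at 1.05, Kat2b 1434037_s_at 0.98, Atf4 1438992_x_at 0.75, Ep300 0.68 and Kat2a 1426783_at 0.66. The brightest probe sets of Crem, Atf4 and all 4 acetyltransferases were thus above the median of their decile. Crebbp 1435224_at was also above the 90th percentile of its decile, 0.98. The dim Crebbp 1436983_at, at 0.65, was just above that of its own decile, 0.62, but at 0.04 without Low Exploration replicate 5. Creb1 1452901_at lay 1.23 below the median of its decile, Crtc1 1434476_at 1.04 below, Crtc2 1424660_s_at 1.08 below and Kat2a 1422971_at 1.33 below. Of the 29 probe sets 17 were above the median of their decile. These values are a description, with no test.

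**Figure D3:**
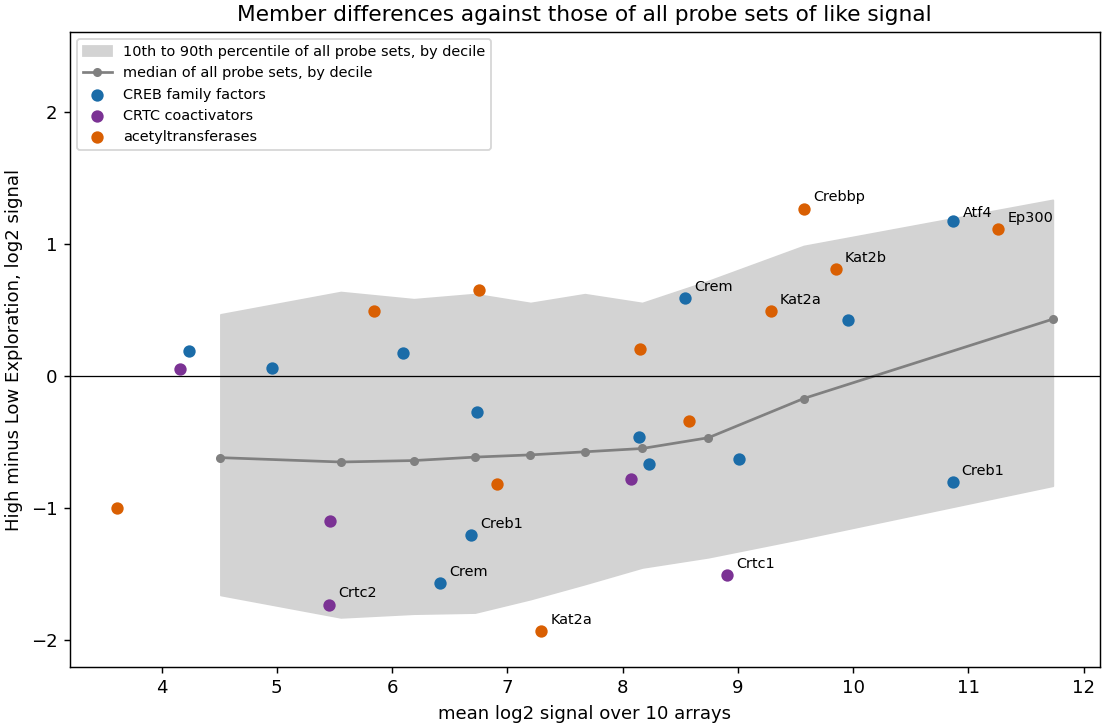
Difference between High and Low Exploration in log2 signal (vertical axis) against mean log2 signal over the 10 arrays (horizontal axis). Points are the 29 probe sets, coloured by role and named for the 12 given on every array. The grey line and band give the median and the 10th to 90th percentile of all probe sets in each of 10 deciles of signal. Crebbp 1435224_at, at 1.27, lies above the band and Crebbp 1436983_at, at 0.65, just above it. Crtc1 1434476_at and Kat2a 1422971_at, at −1.51 and −1.93, lie below it.

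Few pairs of probe sets of 1 member gene went together. Of 40 pairs of probe sets of the same gene, 4 had a Pearson r above 0.5 over the 10 arrays after group means were removed. The median r was −0.08 and the highest, between Crem 1418322_at and 1430598_at, was 0.68. Most pairs held a probe set not above the yardstick. Where both were above it, r was −0.53 for Creb1, 0.12 for Atf4 and 1.3e-04 for Kat2b, from 1 pair each. No r over all same-gene pairs on the array was at hand. Whether low values are particular to these genes was therefore not tested. Groups did not overlap in the log2 ratio of 1 pair, the Atf4 pair given above, or 2.50% of the 40, beside 3.92% of all 30372 such pairs on the array. Between genes, the same r was 0.77 for the brightest probe sets of Crebbp and Kat2b, 0.62 for Crebbp and Ep300, −0.55 for Creb1 and Crebbp and −0.63 for Atf4 and Crtc1. The probe sets most like Creb1 1452901_at by this measure belonged to Oprk1, Eif2ak1 and Prune2, with r of 0.97, 0.97 and 0.96. Those most like Crebbp 1435224_at belonged to Strbp, Sh3bgrl and Hecw2, each with an r of 0.96. Such values over 10 arrays, picked as the highest of many and sharing the scaling of each array, describe likeness only.

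Around the family, 90 genes were taken from lists of related factors, kinases and phosphatases, targets and partners, and 83 had a probe set with their symbol alone, of which the brightest was used. None of the 83 passed limma's threshold, which 0.0385% of all genes did on their brightest probe set. At an unadjusted p under 0.05 there were 5 higher and 5 lower in High Exploration mice, beside 6.46% and 12.7% of all genes. Among 17 kinases and phosphatases that act on CREB and CRTC, 2 were higher and 3 lower by that measure. Ppp3cb, a catalytic subunit of calcineurin, differed by 1.75 (SE 0.50, limma adjusted p = 0.136) and Camkk2, the kinase that activates CaM kinases, by −1.36 (SE 0.44, limma adjusted p = 0.148). With the hybridisation controls in the model these were 0.41 and −0.57, and 3 of 5 Ppp3cb and 2 of 4 Camkk2 probe sets were higher in High Exploration mice. Prkaca, the catalytic subunit of protein kinase A, was the single gene of the lists whose groups did not overlap with higher signals in High Exploration mice, at 0.87 (limma adjusted p = 0.246). Akt1 and Gsk3b did not overlap in the opposite direction, at −1.47 and −1.17 (limma adjusted p = 0.150 and 0.152), and the Akt1 probe set was not above the yardstick. These are 1.20% of the 83 genes higher and 2.41% lower, beside 1.93% and 3.61% of all genes on their brightest probe sets. Prkaca, Akt1 and Gsk3b were chosen after their values were seen.

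Among 19 CREB targets 10 were higher and 9 lower, with a median difference of 0.10 beside −0.30 over all genes. Of all genes 37.6% were higher on their brightest probe set. Bdnf, the growth factor of activity-dependent plasticity, differed by 1.64 (SE 0.57, limma adjusted p = 0.160), and Junb, a partner of Fos in AP-1, by −1.26 (SE 0.64, limma adjusted p = 0.270). The other Bdnf probe set was lower, and neither Bdnf nor Junb was above the yardstick. The 4 targets with a full element in the windows shown above did not go one way. Dusp1, a phosphatase of MAP kinases, differed by 1.01, whereas Sst, Pcsk1 and Scg2, a neuropeptide, a prohormone convertase and a granin, differed by −0.79, −0.72 and −0.41 (limma adjusted p from 0.271 to 0.815 for the 4). Dusp1 and Sst were not above the yardstick, and at equal hybridisation controls Scg2 turned to 0.20.

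Of 13 related factors 6 were higher and 7 lower, and none had an unadjusted p under 0.05. The share to set beside this and the counts that follow is the 37.6% of all genes that were higher. Creb5 and Creb3l1 came nearest, at 1.31 and −1.09 (limma adjusted p = 0.236 and 0.266), but Creb5 was higher on 1 of its 4 probe sets and Creb3l1 was not above the yardstick. Among 22 partners of Kat2a and Kat2b in SAGA and ATAC, 8 were higher and 14 lower with a median of −0.35. Dr1, a subunit of ATAC, differed by 1.27 and Tada3, an adaptor of both complexes, by −1.20 (limma adjusted p = 0.198 and 0.217), the latter not above the yardstick. Partners of Crebbp and Ep300 together with other acetyltransferases were 6 higher and 6 lower, with a median of 0.03. Ncoa2, a coactivator of nuclear receptors, differed by 1.28 and Cited4, which binds Crebbp and Ep300, by −1.65 (limma adjusted p = 0.207 and 0.223), and Cited4 was not above the yardstick.

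**Figure D4:**
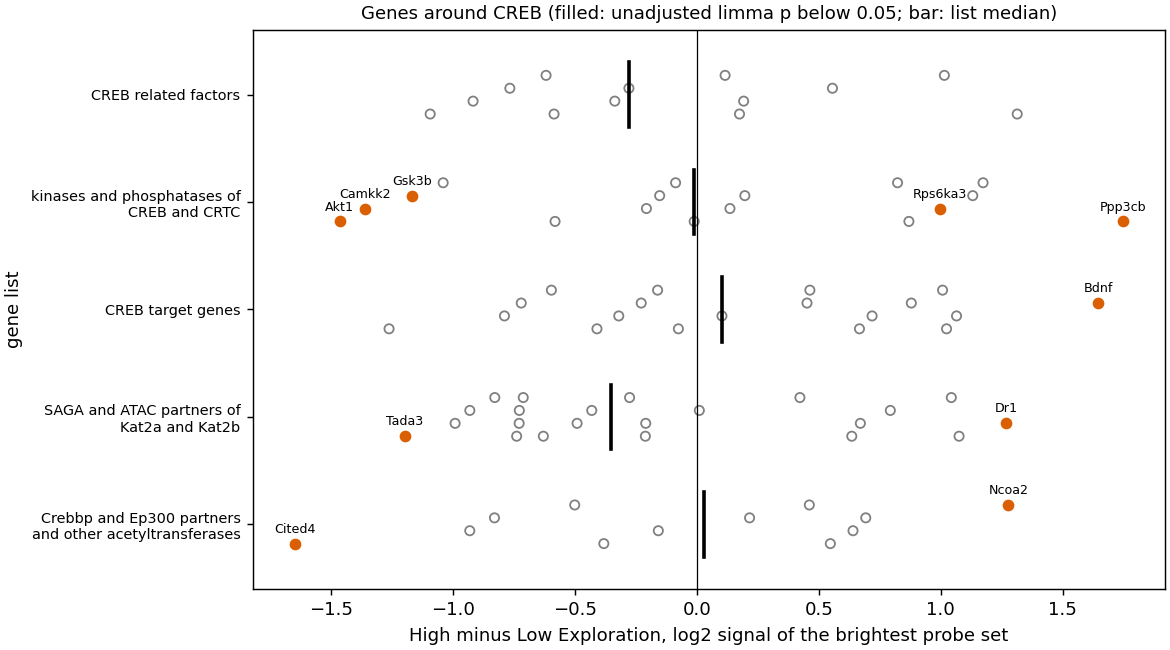
Difference between High and Low Exploration in log2 signal (horizontal axis) for the brightest probe set of each gene in 5 lists (vertical axis). Each circle is 1 gene, filled circles have an unadjusted limma p under 0.05 and the black bar is the median of the list, from −0.35 for the partners of Kat2a and Kat2b to 0.10 for CREB targets.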

How the data were processed

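Hippocampal RNA of 10 mice was hybridised to Affymetrix mouse genome arrays, 1 per mouse and 1 colour. For RNA extraction the paper names Qiagen RNA/DNA columns or Trizol, with a change from Trizol to columns in its handling experiment. It does not state separately which was used for these 10 mice. The authors summarised the arrays with MAS 5.0 in Expression Console 1.1, and the deposited values are probe set intensity on a linear scale, scaled by a constant per array and with no normalisation of the distribution. If abundant transcripts read higher, such a scaling makes others read lower. The labels describe the standard labelling protocol and the methods a double round of amplification.

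The 64 control probe sets were left out. All 45037 others were fitted in limma 3.58.1 (R 4.3.3; lmFit and eBayes, log2 signal, no filter) with Benjamini-Hochberg adjustment. Symbols came from the platform annotation, which named 34945 probe sets with 1 gene, 932 with several and 9160 with none. The fit was tested on simulated data with the spread of each probe set and 5 arrays per group. Of 50 log2 changes of each size it recovered 0 of size 1, 5 of size 2, 16 of size 3 and 37 of size 4. There were 2 false calls. Probe sets followed on every array were, per gene, the brightest and the one with the smallest p. From each list of related genes the 2 with the smallest p were named. The members and lists were chosen with earlier results of these data known. Alternatives were median centring, quantile and cyclic loess normalisation, equal hybridisation controls, a pseudocount of 32, a filter at the median signal, array weights, the control level as a covariate and leaving out each array. Ratios of probe sets within a gene were added after the data were seen. Array number limits the precision.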

Additional observations from a re-analysis of the deposited data

Results flagged for a closer look

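On 5 of the 29 probe sets 1 array stood apart from the other 4 of its group by Dixon's criterion for the gap to the nearest array. Of 58 groups of 5 arrays examined, chance alone would mark about 5%. Low Exploration replicate 1 was at 4.52 on Crem 1430847_a_at, where the others of its group were at 7.44 to 8.48, and the difference between groups was −2.24 without it and −1.57 with it. High Exploration replicate 3 was at 3.49 on Crem 1449037_at, below the others at 6.97 to 7.71, and the difference turned from −0.27 to 0.51 without it. Low Exploration replicate 2 was at 6.20 on Crtc1 1446533_at, where the others were at 8.80 to 9.28, and the difference went from −0.78 to −1.35 without it. High Exploration replicate 4 was at 8.04 on Crtc1 1458443_at, against 3.69 to 4.56, and the difference went from −1.10 to −1.88 without it. Low Exploration replicate 5 was at 4.00 on Crebbp 1436983_at, where the others were at 6.69 to 7.70, and the difference went from 0.65 to 0.04 without it. No limma adjusted p fell under the threshold without these arrays (0.135, 0.593, 0.192, 0.224 and 0.976, in the same order).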

How the results depend on the processing

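No member and no gene of the surrounding lists passed limma's threshold under any of the alternatives run, and the smallest adjusted p of a member, 0.0798, was that of Atf4 1438992_x_at with the filter at the median signal, which 15 of the 29 probe sets passed. The 12 probe sets followed on every array kept their sign in all 212 fits under alternatives. They were picked from the same data by signal or smallest p, so their kept sign is no separate evidence. A kept sign can also hide a change in size. Crtc1 1434476_at went from −1.51 to −0.03 with the control level as a covariate. Of the other 17 probe sets 11 changed sign under 1 or more alternatives with all arrays kept, 24 times in all, and the widest of these changes was that of Crebbp 1434633_at, from 0.21 to −1.44 with the control level as a covariate. The count of members whose groups did not overlap went from 1 to 3 with median centring and equal hybridisation controls (Crebbp 1435224_at and Kat2a 1426783_at besides Atf4) and to 2 with quantile normalisation and cyclic loess (Crebbp 1435224_at besides Atf4). Without single arrays it ranged from 1 to 3, at 3 without High Exploration replicate 3 or Low Exploration replicate 1 and at 2 without replicates 4 or 5 of the High or 2 or 4 of the Low Exploration mice. The median difference over the members went from −0.27 to 0.27 with median centring, 0.30 with quantile normalisation, 0.35 with cyclic loess, 0.34 at equal hybridisation controls and 0.21 with the filter, and ranged from −0.48 to −0.05 without single arrays. Of the members 17 were higher under the first 4 of these, against 14 as deposited. Over all probe sets 32 passed as deposited, 84 with the pseudocount, 39 with array weights, 3 with the filter, 1 with each of the 4 scalings and 0 with the control level as a covariate, where 3088 had an unadjusted p under 0.05. At an unadjusted p under 0.05 the members numbered 5 as deposited, 7 with the pseudocount or array weights and 0 with the covariate. The 7 are 24.1% of the members, beside 22.9% and 23.4% of all probe sets in those fits. The cause of these changes was not tested. No paired analysis was possible because the labels give each mouse its own number and no numbers shared between groups.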
